A study of Mus musculus with 4 samples.

Results

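The collagen chain genes are the mouse genes whose symbols take the form Col, a type number, the letter a and a chain number. All 44 such genes with a probe set annotated to a single symbol were taken, out of 19938 genes with such a probe set. No measured value decided which genes entered, but the family was chosen with earlier results of these data known. They comprised 11 fibrillar collagens, 6 basement membrane collagens, 9 FACIT collagens (chains that coat the surface of fibrils) and 18 others (beaded filament, network, anchoring, multiplexin, transmembrane and unclassified chains). All 44 passed the filter on dim probe sets and were among the 14914 genes tested.

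Collagens are trimers of chains wound into a triple helix, and the chains are folded and hydroxylated in the endoplasmic reticulum before they are secreted and crosslinked. In the heart, fibroblasts make most of the fibrillar collagen that ties muscle cells together. Pressure overload is known to raise its deposition between muscle cells and around vessels, and the basement membrane collagens sheathe each muscle cell and capillary.

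The values came from 4 samples of mouse heart, 1 wild type and 3 MAFbx KO, all taken 1 week after transverse aortic constriction (TAC), which loads the left ventricle with pressure. MAFbx, encoded by Fbxo32, is the substrate-binding F-box protein of a muscle ubiquitin ligase, and the comparison asks what its loss does to gene expression in the loaded heart. The sources used here do not give strain, age, sex or the construction of the knockout allele, and no heart without constriction was among the samples. Samples are numbered within a genotype with nothing on whether they are separate animals, so the spread used for p-values, which comes from the knockout arrays alone, may be partly technical.

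Levels are log2 values made by the authors with RMA, and every log2 fold change is knockout minus wild type. The median of an array ranged from 6.84 to 6.87. Fbxo32 read 7.54 for wild type and 5.65, 5.61 and 5.56 for knockouts 1, 2 and 3. Xist, the RNA of the inactive X chromosome, read 4.13 on wild type 1 and 3.20 on knockout 3, against 9.18 and 9.52 on knockouts 1 and 2, and the Y-linked gene Eif2s3y read 8.57 and 8.49 against 3.31 and 3.64. The wild type sample therefore shared its sex-linked pattern with knockout 3 only, and the comparison of genotypes cannot be told apart fully from that difference. With 1 wild type array the smallest p of an exact permutation test is 0.25, and the fit below assumes that this array varies like the knockout arrays.

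No collagen chain gene passed the test between genotypes. Of the 44 genes, 0 passed limma's test at an adjusted p under 0.05 (0.00671% of all genes tested passed), and the smallest adjusted p was 0.880. Fbxo32, the gene knocked out, missed the threshold too (log2 fold change -1.93, SE 0.17, limma adjusted p = 0.0529). A count of 0 therefore does not show that the collagens were unchanged. At an unadjusted limma p under 0.05 the count was also 0, where 4.05% of all genes were lower and 1.68% were higher in the knockout samples. The median log2 fold change of the family was -0.03, beside 0.00 over all genes tested, with a range from -0.90 for Col12a1 to 0.49 for Col14a1. The SD among knockout arrays exceeded the difference between genotypes in 40 of the 44 genes, against 51.4% of all genes. All 3 knockout arrays lay below the wild type array in 3 members, Col5a3, Col28a1 and Col10a1 (24.6% of all genes), and above it in 3, Col14a1, Col4a4 and Col6a2 (23.9% of all genes). Single arrays decided these counts. Without knockout 3, 31 members were below wild type in both remaining knockouts (35.1% of all genes), and the family median was -0.145, against 0.025 without knockout 1 and 0.052 without knockout 2. Without knockout 1 or knockout 2, 6 and 9 members were above wild type in both remaining knockouts (29.6% and 30.9% of all genes).

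The collagens differed among the knockout samples. The knockout 3 array gave the highest of the 4 values in 40 of the 44 members, against 23.1% of all genes tested. The exceptions were Col5a3, Col6a6 (by the brighter of its probe sets), Col28a1 and Col10a1. Knockout 3 lay at least 2-fold above the mean of knockouts 1 and 2 in 11 members, a spread seen in 0.784% of all genes. Knockout 3 also stood apart from knockouts 1 and 2 in Xist and Eif2s3y, so the spread cannot be told apart from that difference. In 28 members knockouts 1 and 2 lay below and knockout 3 above the wild type array, an arrangement found in 9.84% of all genes. It was already known for some members from earlier results of these data. The median SD among knockout arrays was 0.30 for the collagens and 0.16 for all genes. Bulk heart RNA was profiled, so fewer cells of a type and less RNA per cell cannot be told apart, here or in what follows.

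**Figure D1:**
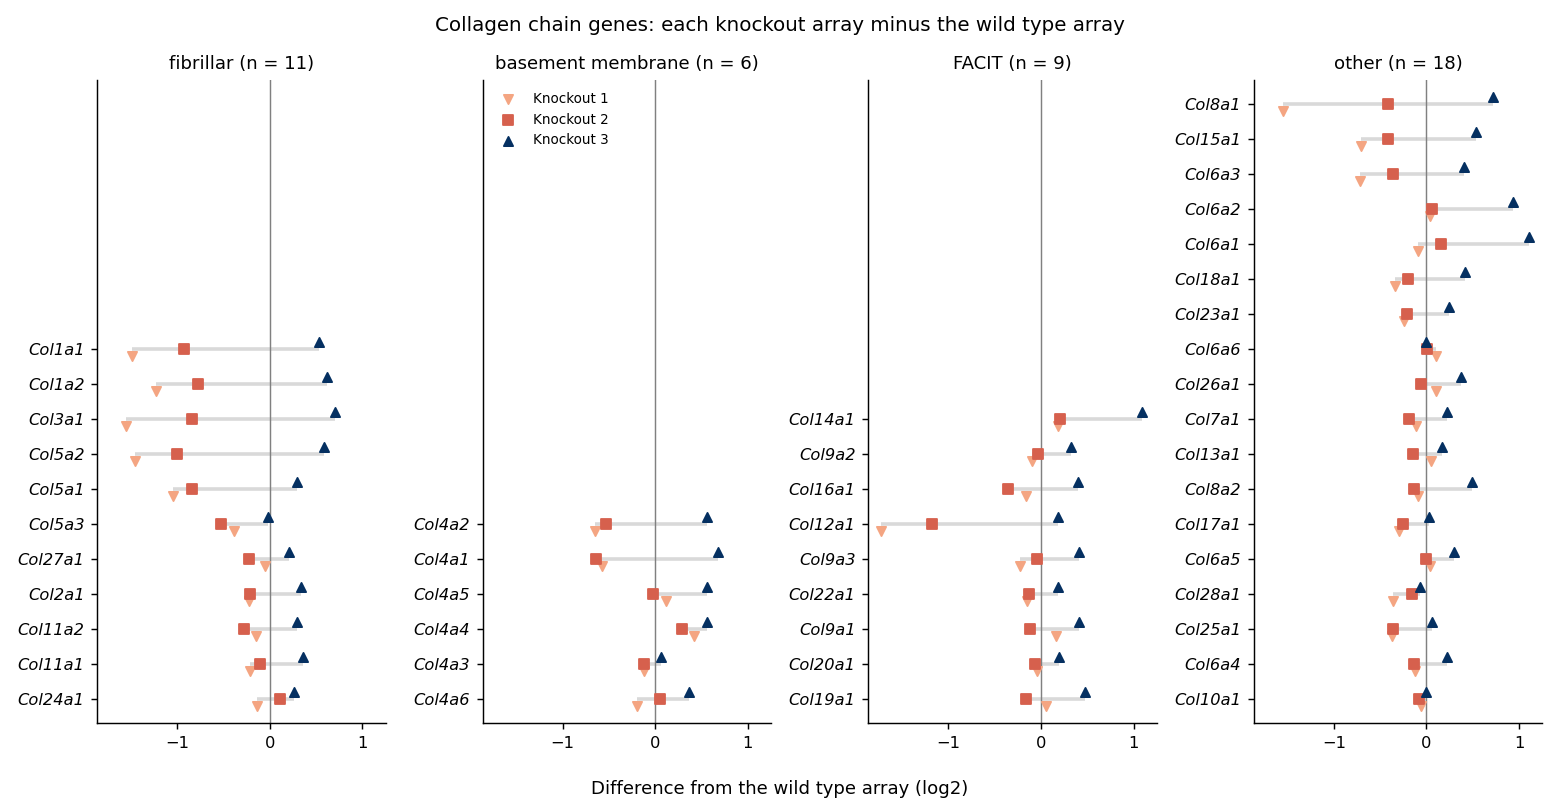
Each knockout array minus the wild type array (log2, horizontal axis) for the 44 collagen chain genes in 4 classes, ordered by mean level, with 1 symbol per array, shifted slightly up or down for legibility, and a grey bar over their range. Knockout 3 lies to the right of the wild type line in 40 genes, and the widest bars belong to Col8a1, Col3a1, Col5a2 and Col1a1.

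Set singly against the wild type array, knockout 1 lay at least 1.5-fold lower in 10 members (6.27% of all genes) and knockout 2 in 7 (4.96% of all genes). Knockout 3 lay at least 1.5-fold higher in 8 (1.6% of all genes). These comparisons share the wild type array. The family medians were -0.16 for knockout 1, -0.16 for knockout 2 and 0.36 for knockout 3, and over all genes they were 0.01, 0.00 and -0.01.

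The share of all genes that were highest on knockout 3 moved with the level. It was 31.8% among genes with a mean level under 7 and 13.1% among those at 7 or more, a division chosen after seeing the data. In the family the counts were 27 of 30 members under 7 and 13 of 14 members at 7 or more. The median difference between knockout 3 and the mean of knockouts 1 and 2 was 0.38 in the former and 1.19 in the latter, against -0.01 over all genes. The dimmer members thus also had knockout 3 on top, at a smaller median size, in a range where a sizeable share of all genes did so too.

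**Figure D2:**
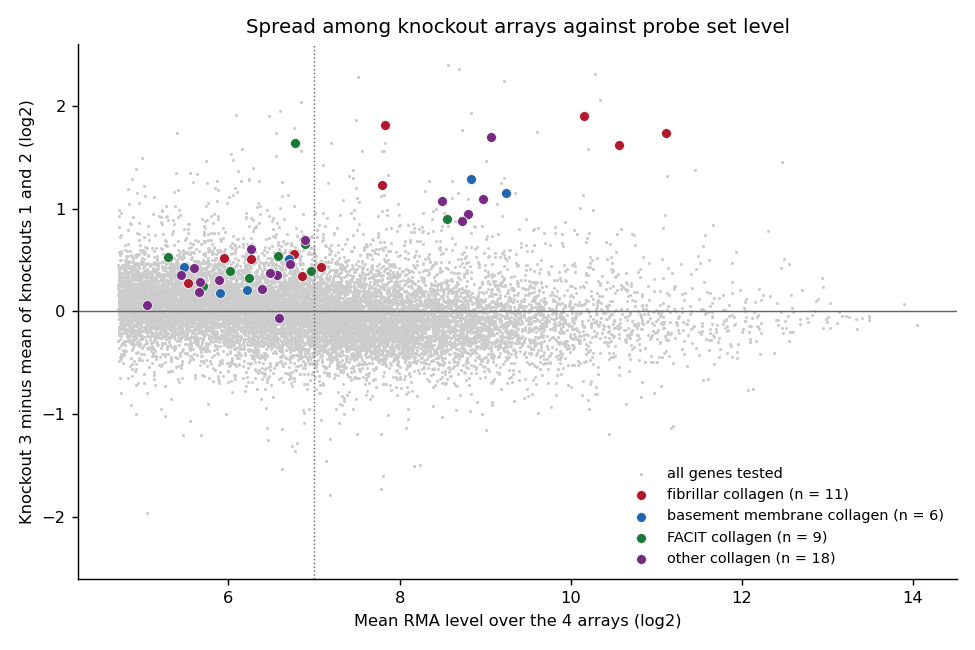
Knockout 3 minus the mean of knockouts 1 and 2 (log2, vertical axis) against the mean level over the 4 arrays (log2, horizontal axis), with all 14914 genes tested in grey and the collagens coloured by class; the dotted line marks a level of 7, and 4 genes lie beyond the axis limit of 2.6. Of the collagens at 7 or more, 13 of 14 were highest on knockout 3.

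The fibrillar collagens form the striated fibres that give tissue its tensile strength, and the 5 that make up types I, III and V without Col5a3 showed the widest spread of the class. Col1a1 and Col1a2 encode the chains of type I collagen, the main fibre protein of scar. Col1a1 read 11.58 for wild type and 10.10, 10.66 and 12.11 for knockouts 1, 2 and 3. Knockout 3 stood 4.03-fold above knockout 1, with the wild type array between them. The knockout mean was 10.96 ± 1.04 (SD, n = 3) and the log2 fold change -0.62 (SE 0.66, limma adjusted p = 0.965). Col1a2 read 10.91 for wild type and 9.68, 10.14 and 11.53 for the knockouts, which gave a log2 fold change of -0.46 (SE 0.62). Both chains of type I collagen thus had the same order of arrays.

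Col3a1 encodes type III collagen, which mixes with type I in distensible tissue. It read 10.58 for wild type and 9.03, 9.74 and 11.28 for the knockouts, with knockout 3 4.76-fold above knockout 1. It had a log2 fold change of -0.56 (SE 0.73, adjusted p by limma = 0.987). Col5a1 and Col5a2 encode type V chains, which start fibres and limit their width. Col5a2 read 8.29 for wild type and 6.84, 7.29 and 8.88 for the knockouts. Col5a1 read 8.19 against 7.15, 7.35 and 8.48. Their log2 fold changes were -0.62 (SE 0.68) and -0.53 (SE 0.47). In each of these 5 genes knockouts 1 and 2 were at least 1.5-fold below the wild type array and knockout 3 lay above it.

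Col5a3, the third type V chain, was the exception among the fibrillar genes. It read 7.31 for wild type and 6.93, 6.78 and 7.29 for the knockouts, so that knockout 3 lay just under the wild type level, and its log2 fold change was -0.31 (SE 0.23, limma adjusted p = 0.945). The other 5 fibrillar genes were Col2a1, Col11a1 and Col11a2, chains best known from cartilage, and the minor chains Col24a1 and Col27a1. Their levels ran from 5.33 to 7.13, and all 5 were highest on knockout 3, by 0.21 to 0.36 over the wild type array. The class median log2 fold change was -0.31 over its 11 genes. It was -0.07 without knockout 1, -0.20 without knockout 2 and -0.455 without knockout 3. With Xist scored as high or low as a covariate it was 0.34, where the genotype term rests on knockout 3 against wild type. The same omissions of knockout 1 and of knockout 3 moved Col1a1 to -0.195 and -1.20, Col1a2 to -0.075 and -1.0, Col3a1 to -0.07 and -1.195, Col5a1 to -0.275 and -0.94, and Col5a2 to -0.205 and -1.225.

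**Figure D3:**
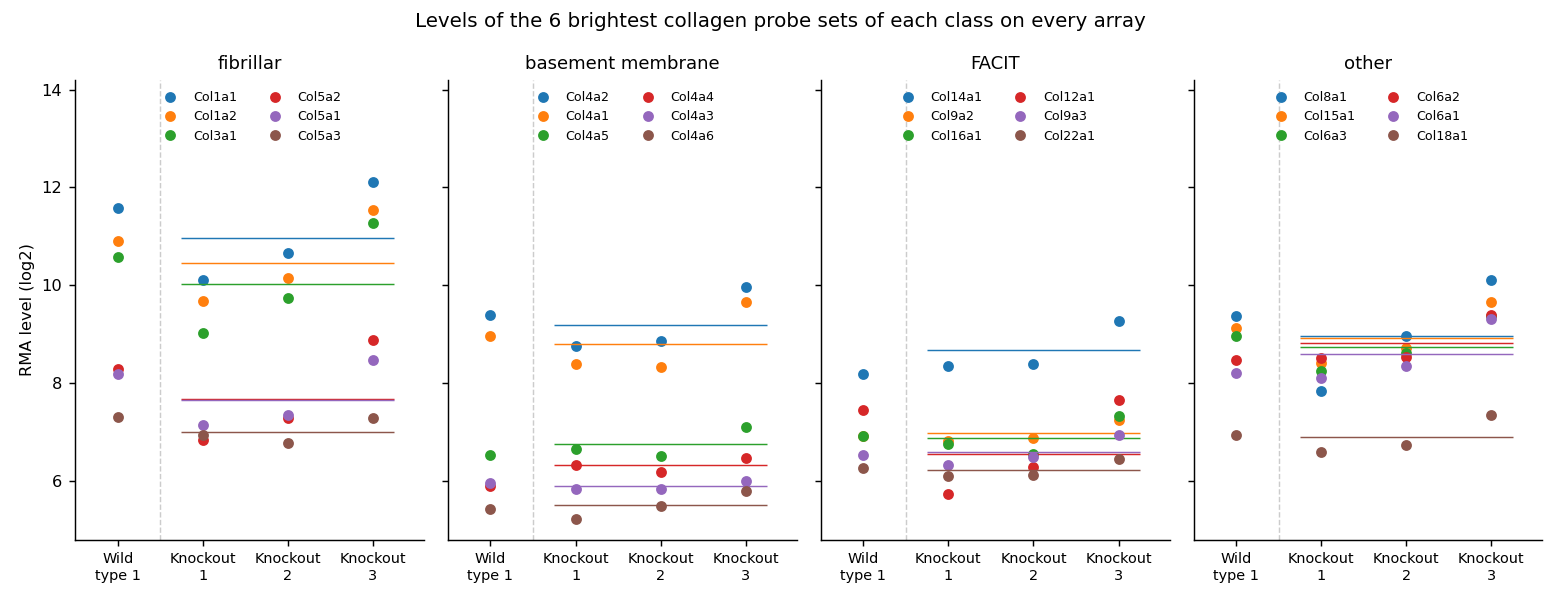
RMA levels (log2, vertical axis) of the 6 brightest probe sets in each collagen class on each of the 4 arrays (horizontal axis), with 1 point per array and a thin line at the mean of the 3 knockout arrays. In the fibrillar panel Col1a1 runs from 10.10 on knockout 1 to 12.11 on knockout 3, with the wild type array at 11.58.

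The start regions of Col1a2 and Col3a1 are shown because both genes had the same order of arrays, whereas the letters before their starts differ. Of the 44 genes 35 had an entry in the RefSeq promoter table (GRCm38.p6), which gives 250 bases before to 50 after the annotated start. The Col1a2 window is chr6:4505368-4505667, plus strand, and the Col3a1 window is chr1:45311288-45311587, plus strand. Capitals mark matches on either strand to the CCAAT box (searched as CCAAT), to the GC box (searched as GGGCGG) and to the TATA box (searched as TATAAA).
Col1a2: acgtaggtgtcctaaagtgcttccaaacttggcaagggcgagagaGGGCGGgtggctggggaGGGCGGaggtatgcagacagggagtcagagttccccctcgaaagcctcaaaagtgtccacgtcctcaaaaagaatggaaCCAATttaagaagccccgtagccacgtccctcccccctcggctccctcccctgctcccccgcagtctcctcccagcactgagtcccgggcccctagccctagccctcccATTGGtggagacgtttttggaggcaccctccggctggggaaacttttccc
Col3a1: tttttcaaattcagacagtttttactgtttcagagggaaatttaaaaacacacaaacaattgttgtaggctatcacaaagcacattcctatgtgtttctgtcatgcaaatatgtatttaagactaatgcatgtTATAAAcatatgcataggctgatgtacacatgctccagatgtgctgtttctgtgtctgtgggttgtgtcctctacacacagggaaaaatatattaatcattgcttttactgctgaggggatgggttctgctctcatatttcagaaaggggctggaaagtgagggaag
Col1a2 had CCAAT 109 bases before the start and GGGCGG at 205 and 188 bases before it, and a reversed CCAAT at the start itself. Col3a1 had TATAAA 117 bases before the start and no match to the others. G and C made up 61.0% of the Col1a2 window and 37.7% of the Col3a1 window, beside a median of 52.7% over all windows. CCAAT occurred in 13 of 38 collagen windows (34.2%) and in 37.4% of all 32851 windows, TATAAA in 5 (13.2%) and 13.6%, and GGGCGG in 23 (60.5%) and 35.7%. A window counted once per motif, whether or not matches overlapped, and a match is a description of the letters only.

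Type IV collagen forms the sheet of the basement membrane. Col4a1 and Col4a2 encode its common chains, which assemble as a trimer of both, and they had the widest spread of the class. Col4a1 read 8.97 for wild type and 8.39, 8.33 and 9.65 for knockouts 1, 2 and 3. Col4a2 read 9.40 against 8.75, 8.87 and 9.96. The differences of knockouts 1, 2 and 3 from wild type were thus -0.58, -0.64 and 0.68 for Col4a1 and -0.65, -0.53 and 0.56 for Col4a2. The log2 fold changes were -0.18 (SE 0.49) and -0.21 (SE 0.44), both with a limma adjusted p of 0.996.

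These genes lie head to head on chromosome 8 and are read in opposite directions from a shared start region, and their windows are shown for that reason. The Col4a1 window is chr8:11312777-11313076, minus strand, and the Col4a2 window is chr8:11312555-11312854, plus strand, and they have 78 bases in common. Capitals mark the same motifs as above.
Col4a1: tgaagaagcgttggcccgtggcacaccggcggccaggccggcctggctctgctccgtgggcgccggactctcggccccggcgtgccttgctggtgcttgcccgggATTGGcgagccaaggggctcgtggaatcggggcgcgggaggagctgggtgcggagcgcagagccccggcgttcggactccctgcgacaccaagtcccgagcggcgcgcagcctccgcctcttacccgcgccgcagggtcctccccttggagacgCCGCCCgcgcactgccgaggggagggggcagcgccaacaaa
Col4a2: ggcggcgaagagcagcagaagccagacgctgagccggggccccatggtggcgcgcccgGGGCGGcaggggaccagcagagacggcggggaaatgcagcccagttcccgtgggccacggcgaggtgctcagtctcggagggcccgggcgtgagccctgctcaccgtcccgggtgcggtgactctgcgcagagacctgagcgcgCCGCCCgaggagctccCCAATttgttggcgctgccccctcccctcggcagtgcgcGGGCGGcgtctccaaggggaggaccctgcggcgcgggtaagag
Both windows held CCAAT and GGGCGG on one strand or the other and neither held TATAAA. The GGGCGG at base 8 after the Col4a2 start and the reversed one at base 10 after the Col4a1 start are the same bases. They lie in the shared stretch and were counted in both windows. In Col4a2 the CCAAT began 32 bases before the start, and in Col4a1 the reversed CCAAT began 145 bases before it. G and C made up 74.0% and 73.7% of the windows.

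The remaining type IV chains, which replace the common ones in particular tissues such as the kidney filter, differed less between the arrays. Col4a5 read 6.54 for wild type and 6.66, 6.52 and 7.10 for the knockouts (log2 fold change 0.22, SE 0.25). Col4a4 read 5.90 against 6.32, 6.19 and 6.46, so all 3 knockout arrays lay above the wild type array without overlap. Its log2 fold change of 0.42 (SE 0.19) had the smallest unadjusted p of the family, 0.0590, with a limma adjusted p of 0.880. Col4a3 read 5.95 against 5.83, 5.83 and 6.01, and Col4a6 read 5.43 against 5.23, 5.48 and 5.79. Their log2 fold changes were -0.06 (SE 0.18) and 0.07 (SE 0.24). All 6 genes of the class were highest on knockout 3, and the class median log2 fold change was 0.01, with -0.097 without knockout 3 and 0.113 without knockout 1.

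FACIT collagens bind along fibrils and link them to other matrix. Col12a1 and Col14a1, which both sit on type I fibrils, took opposite places in the family. Col12a1 read 7.46 for wild type and 5.74, 6.28 and 7.65 for the knockouts. The differences of knockouts 1, 2 and 3 from wild type were -1.72, -1.18 and 0.19, which gave a log2 fold change of -0.90 (SE 0.63, adjusted p by limma = 0.938). Col14a1 read 8.18 against 8.36, 8.39 and 9.27, so that every knockout array lay above the wild type array. Its log2 fold change was 0.49 (SE 0.36, limma adjusted p = 0.945), and knockout 3 stood 1.09 above wild type where knockouts 1 and 2 stood 0.18 and 0.21 above it.

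Col16a1, a FACIT chain of several connective tissues, read 6.92 for wild type and 6.76, 6.56 and 7.32 for the knockouts. The type IX chains Col9a2 and Col9a3, known from cartilage, read 6.91 against 6.81, 6.88 and 7.24, and 6.54 against 6.32, 6.50 and 6.95. Col22a1, a collagen of the junction between muscle and tendon, read 6.26 against 6.11, 6.13 and 6.44. The log2 fold changes of these 4 genes were -0.04 (SE 0.30), 0.07 (SE 0.22), 0.05 (SE 0.26) and -0.03 (SE 0.20). Col9a1, Col19a1 and Col20a1 had levels from 5.04 to 6.32. All 9 genes of the class were highest on knockout 3, and the class median log2 fold change was 0.05, with -0.065 without knockout 3 and 0.145 without knockout 1. Without knockout 3 Col12a1 stood at -1.45 and Col14a1 at 0.195, and without knockout 1 Col12a1 stood at -0.495.

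Among the other collagens Col8a1 had the widest range over the knockout arrays in the whole family. It encodes a short chain of a network collagen of vessel walls, and read 9.38 for wild type and 7.83, 8.97 and 10.10 for the knockouts. Knockout 3 stood 4.82-fold above knockout 1, and the log2 fold change was -0.41 (SE 0.72, limma adjusted p = 0.992). The multiplexin Col15a1, which anchors the basement membrane of muscle and capillaries, read 9.13 against 8.42, 8.71 and 9.66. Col18a1, the multiplexin whose end fragment is endostatin, read 6.93 against 6.59, 6.73 and 7.35. Their log2 fold changes were -0.20 (SE 0.43) and -0.04 (SE 0.30). In all 3 genes the wild type array lay between knockout 2 and knockout 3.

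Type VI collagen builds beaded filaments around cells from 1 chain each of Col6a1, Col6a2 and Col6a3. Col6a1 read 8.20 for wild type and 8.11, 8.36 and 9.31 for the knockouts. Col6a2 read 8.47 against 8.51, 8.53 and 9.40. In both genes knockouts 1 and 2 lay within 0.16 of the wild type array and knockout 3 stood 1.11 and 0.93 above it. Col6a3 read 8.97 against 8.25, 8.61 and 9.38, so the differences from wild type were -0.72, -0.36 and 0.41. The log2 fold changes were 0.39 (SE 0.42), 0.34 (SE 0.36) and -0.22 (SE 0.39), with limma adjusted p of 0.968, 0.965 and 0.992. Col6a1 and Col6a2 therefore had knockouts 1 and 2 near the wild type value, whereas Col6a3 had both below it. Without knockout 3 the log2 fold changes of Col6a1 and Col6a2 were 0.035 and 0.05, and without knockout 1 that of Col6a1 was 0.635.

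The remaining 12 genes of this group had levels from 5.0 to 7.01 and log2 fold changes from -0.22 to 0.14. They were the alternative type VI chains Col6a4, Col6a5 and Col6a6, the network chains Col8a2 and Col10a1, Col7a1 of the anchoring fibrils of skin, the transmembrane collagens Col13a1, Col17a1, Col23a1 and Col25a1, and Col26a1 and Col28a1. Of these, 9 were highest on knockout 3. Col10a1, known from growth cartilage, read between 5.0 and 5.08 on all 4 arrays.

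Collagen genes that neighbour each other in the genome made up 8 pairs with no other protein-coding gene between them, by the order of genes in the RefSeq table. Col3a1 and Col5a2, of different fibrillar types and on chromosome 1, gave -1.55 and -1.45 in knockout 1, -0.84 and -1.0 in knockout 2, and 0.70 and 0.59 in knockout 3, each against the wild type array. Such likeness was not confined to neighbours. Col1a1 and Col1a2, not a neighbouring pair, gave -1.48 and -1.23, -0.92 and -0.77, and 0.53 and 0.62 in knockouts 1, 2 and 3. Col6a1 and Col6a2 on chromosome 10 gave -0.09 and 0.04, 0.16 and 0.06, and 1.11 and 0.93 in knockouts 1, 2 and 3. Col9a1 and Col19a1 on chromosome 1 gave 0.16 and 0.06, -0.12 and -0.16, and 0.41 and 0.48. By contrast Col4a3 and Col4a4, also head to head on chromosome 1, differed, with -0.12 and 0.42 in knockout 1 and 0.06 and 0.56 in knockout 3. Col4a5 and Col4a6 on the X chromosome gave 0.12 and -0.20 in knockout 1 and 0.56 and 0.36 in knockout 3. Col6a4 and Col6a5 on chromosome 9 gave -0.12 and 0.04 in knockout 1 and 0.22 and 0.30 in knockout 3. Neighbours on chromosome 9, Col6a5 and Col6a6, gave 0.30 and -0.01 in knockout 3. That holds for the brighter Col6a6 probe set only, since the other read 5.33 for wild type and 5.91 for knockout 3.

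Genes that fold, process and crosslink collagen lay mostly at or below the wild type level. Of 31 such genes tested, 0 passed limma's adjusted threshold, and 6 were lower and 0 higher at an unadjusted p under 0.05 (4.05% and 1.68% of all genes). The median log2 fold change of the list was -0.17, and 14 genes were below wild type in all 3 knockouts (24.6% of all genes). Of the 31, 8 were highest on knockout 3, near the 23.1% of all genes, and the median difference of knockout 3 from wild type was -0.08. Knockouts 1 and 2 lay below and knockout 3 above wild type in 7 (9.84% of all genes). The genes of smallest p were Creb3l1, a transcription factor that drives collagen secretion, and the crosslinking oxidases Loxl4 and Lox. Creb3l1 read 7.01 for wild type and 6.26, 6.05 and 6.34 for the knockouts, which gave a log2 fold change of -0.79 (SE 0.19, adjusted p by limma = 0.498). Loxl4 gave -0.64 (SE 0.22). Lox read 9.27 against 5.86, 6.48 and 8.45, which gave a log2 fold change of -2.34 (SE 0.85, adjusted p by limma = 0.776), and on knockout 3 it lay below the wild type array where the chains of types I and III lay above it.

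Of 12 collagen receptor genes 0 passed the adjusted threshold, 2 were lower and 0 higher at an unadjusted limma p under 0.05 (4.05% and 1.68% of all genes), and 5 were below wild type in all 3 knockouts (24.6% of all genes). Cd44, a receptor of hyaluronan that also binds collagen, had the smallest p (log2 fold change -0.91, SE 0.23, limma adjusted p = 0.516), followed by the leukocyte receptor Lair1 (-0.72, SE 0.27) and the syndecan Sdc1 (-0.52, SE 0.23). Their list median was -0.25. Of the 12, 5 were highest on knockout 3 (23.1% of all genes). Knockouts 1 and 2 lay below and knockout 3 above wild type in 5 (9.84% of all genes).

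Partners of type IV collagen in the basement membrane lay mostly at or above the wild type level. Of 20 genes for laminins, nidogens, proteoglycans and related proteins 0 passed the adjusted threshold, 0 were lower and 3 higher at an unadjusted limma p under 0.05 (4.05% and 1.68% of all genes), and 8 were above wild type in all 3 knockouts (23.9% of all genes). The 3 were Lama5 (0.76, SE 0.25), Smoc2 (0.55, SE 0.18) and Lama2, the laminin chain of muscle (0.63, SE 0.21), with limma adjusted p from 0.665 to 0.696. Lama2 read 8.63 for wild type and 9.11, 9.17 and 9.49 for the knockouts. Lama5 read 8.44 against 9.49, 9.21 and 8.91, and Smoc2 read 8.33 against 8.92, 8.94 and 8.77. In both of the latter knockout 3 was the lowest of the knockouts. The median difference of knockout 3 from the wild type array was 0.46 for these partners and 0.56 for the type IV chains. For knockouts 1 and 2 it was 0.02 and 0.01 for the partners and -0.16 and -0.07 for the type IV chains. Of the 20 partners, 9 were highest on knockout 3 (23.1% of all genes). Knockouts 1 and 2 lay below and knockout 3 above wild type in 6 (9.84% of all genes).

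**Figure D4:**
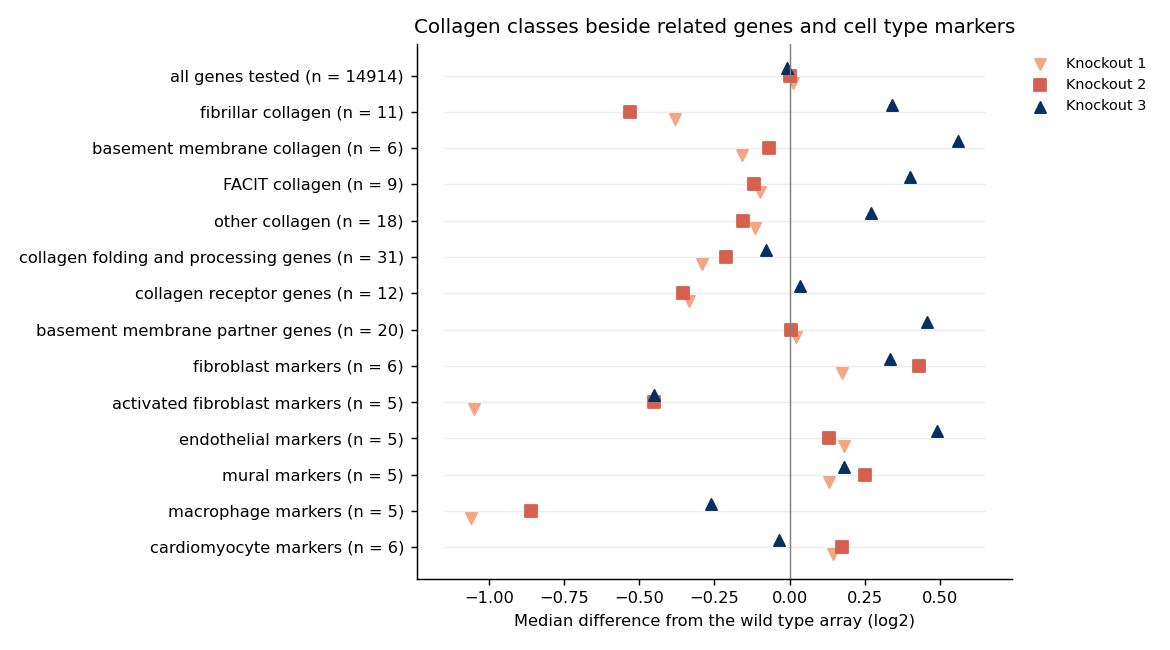
Median difference of each knockout array from the wild type array (log2, horizontal axis) for all genes, the 4 collagen classes, 3 lists of related genes and 6 lists of cell type markers, with 1 symbol per array shifted slightly up or down for legibility. Knockout 3 lies right of 0 for every collagen class. It lies left of 0 for macrophage, activated fibroblast and cardiomyocyte markers and for folding and processing genes. The activated fibroblast markers were divided, with Postn and Fap above wild type on knockout 3.

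Markers of the cells that make collagen were read beside these values. The 6 fibroblast markers (Pdgfra, Tcf21, Dcn, Lum, Gsn and Dpt) had mean levels of 9.55 for wild type and 9.74, 9.88 and 9.84 for knockouts 1, 2 and 3. Gsn, an actin-severing protein, read 10.64 for wild type and 11.49, 11.20 and 10.55 for the knockouts, so on knockout 3 it lay below wild type. Tcf21 read 7.45 against 7.68, 7.43 and 7.78. Dcn, Lum and Dpt were above wild type in all 3 knockouts (23.9% of all genes). Pdgfra, a receptor that defines cardiac fibroblasts, read 8.64 against 8.29, 8.54 and 8.57. The 5 markers of activated fibroblasts (Postn, Cthrc1, Acta2, Tagln and Fap) averaged 8.70 for wild type and 7.34, 8.01 and 8.74 for the knockouts, although their median difference for knockout 3 was -0.45. Postn, a matrix protein, had the order of arrays of Col1a1, with 10.66 against 8.85, 9.92 and 11.69. Fap had that order too, at a dim level, with 5.24 against 5.01, 5.14 and 6.10. Cthrc1 read 8.24 against 5.36, 6.06 and 7.75, and Acta2, smooth muscle actin, read 10.88 against 9.83, 10.43 and 10.10. Tagln read 8.49 against 7.65, 8.48 and 8.04, so none of these 3 was highest on knockout 3.

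Mean levels of the 5 endothelial markers were 8.69 for wild type and 8.83, 8.80 and 9.20 for the knockouts, and all 5 were highest on knockout 3 (23.1% of all genes). The 5 mural cell markers averaged 8.70 against 8.91, 8.88 and 8.85, the 5 macrophage markers 8.61 against 7.70, 7.64 and 8.14, and the 6 cardiomyocyte markers 12.66 against 12.86, 12.86 and 12.68. None of these markers was below the filter on dim probe sets. Of 5 chondrocyte markers Matn1 and Hapln1 were below it, and the 3 tested averaged 6.63 against 6.53, 6.89 and 6.22, with 0 highest on knockout 3. The 4 epithelial and mesothelial markers averaged 5.82 against 5.87, 5.72 and 5.85, and the 2 Schwann cell markers with a named probe set 5.64 against 5.85, 5.84 and 5.55. All 5 macrophage markers were below wild type in all 3 knockouts (24.6% of all genes), 3 of them at an unadjusted limma p under 0.05 (4.05% of all genes lower) and 0 past the adjusted threshold. On knockout 3 C1qa and Csf1r lay near wild type, at 9.36 against 9.39 and 8.51 against 8.61, whereas Cd68 read 8.58 against 9.56. The part of these cell types in the spread of the collagens was not tested, and that of sex cannot be told apart with these arrays.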

How the data were processed

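Total RNA of 4 heart samples was labelled as biotinylated cRNA and hybridised to Affymetrix arrays, 1 array per sample. The authors deposited log2 values, for which the submitters' processing notes name RMA and Affymetrix Expression Console without versions, and the build behind the array is not stated. RMA removes a shift common to most genes and compresses differences between dim ones. No scanner files were analysed, and precision is limited by the number of arrays.

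Of 35556 probe sets 21789 had 1 gene symbol in the platform annotation, 1621 had several and 12146 were unlisted. For each gene the probe set brightest on average was kept, and means under the 25th percentile (4.71) were left out. All 44 collagen genes matched the GRCm38.p6 table by gene identifier. The genotype test was lmFit and eBayes of limma 3.58.1 under R 4.3.3 (two-sided, Benjamini-Hochberg over all 14914 genes, threshold 0.05), with 2 residual and 5.04 prior degrees of freedom, after testing the fit on simulated data. Alternatives were other filters, scalings, probe set rules and variance models, a covariate that scored Xist as high or low, and leaving out each knockout array. The count of genes highest on knockout 3 and the division at a level of 7 were added after seeing the data.

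Full values were given for the 6 brightest probe sets of each class. The 3 genes of smallest p in each related list were given with log2 fold change and SE, and some of them with the value on each array. The members and lists were chosen with earlier results of these data known.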

Additional observations from a re-analysis of the deposited data

How the results depend on the processing

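The count of 0 collagen genes past limma's threshold held under each alternative that gave a test. The count over all genes, 1 as reported, was 0 with no filter on low values, 0 with repeated quantile normalization, 0 with the Xist covariate, 2 with a filter at the median, 7 with genes of 1 probe set only, 7 with an intensity trend and 9 with robust eBayes, and 0 without any of the 3 knockout arrays; the cause was not tested. The 28 genes with knockouts 1 and 2 below and knockout 3 above wild type, and the 40 highest on knockout 3 (29 to 42 under the alternatives, 29 with the filter at the median), stayed within 1.5 times. Genes with all knockout arrays below wild type, 3 as reported, were 1 with the filter at the median and 1 with centred arrays, and 3 to 31 when a knockout array was left out, 31 without knockout 3. Those above, 3 as reported, were 5 with repeated quantile normalization and 6 with centred arrays, 4 to 9 when a knockout array was left out (4 without knockout 3), and 40 with knockout 3 alone. The Xist covariate reduces the genotype term to knockout 3 against wild type 1, with 1 residual degree of freedom; these arrays alone gave the same medians, 0.36 for the family, 0.34 for fibrillar, 0.56 for basement membrane, 0.40 for FACIT and 0.27 for other collagens, and log2 fold changes of turned sign, 0.53 for Col1a1, 0.62 for Col1a2, 0.70 for Col3a1, 0.59 for Col5a2, 0.29 for Col5a1, 0.56 for Col4a2, 0.68 for Col4a1, 0.06 for Col4a3, 0.40 for Col16a1, 0.19 for Col12a1, 0.18 for Col22a1, 0.72 for Col8a1, 0.53 for Col15a1, 0.41 for Col6a3, 0.42 for Col18a1. Leaving out 1 knockout array also turned the sign of the medians of the family (-0.145 to 0.052), basement membrane (-0.097 to 0.113), FACIT (-0.065 to 0.145) and other collagens (-0.14 to 0.042), and of some genes, with ranges of -0.59 to 0.015 for Col4a2, -0.61 to 0.050 for Col4a1, -0.26 to 0.12 for Col16a1, -0.14 to 0.025 for Col22a1, -0.98 to 0.155 for Col8a1, -0.565 to 0.055 for Col15a1, -0.54 to 0.025 for Col6a3, -0.27 to 0.11 for Col18a1, -0.075 to 0.205 for Col4a6, -0.065 to 0.15 for Col9a2, -0.13 to 0.185 for Col9a3. Under the filters, scalings, probe set rules and variance models none of the 24 genes with full values turned sign (22 had a value with the filter at the median). The covariate does not enter the counts by position, the variance models change no level, and without knockout 3 the split around wild type cannot be counted, so these have no value. No paired analysis was possible because the genotypes share only replicate number 1.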

Other observations

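Only Col6a5 and Col6a6 among the collagens had more than 1 named probe set. For Col6a6 the probe set with the higher mean read 6.57 for wild type and 6.67, 6.58 and 6.56 for knockouts 1, 2 and 3, and the other read 5.33 against 5.83, 5.87 and 5.91. The first thus placed all arrays within 0.11 of each other, whereas the second had all 3 knockouts 0.50 or more above wild type. For Col6a5 the probe set used read 5.59 against 5.63, 5.58 and 5.89, and the other, below the filter level of 4.71, read 4.51 against 4.17, 4.51 and 4.59. Sparc, a matrix protein that binds collagen and helps its assembly, was chosen for mention after its values were seen. It read 11.66 for wild type and 10.69, 11.16 and 12.30 for the knockouts, the order of Col1a1, with a log2 fold change of -0.28 (SE 0.54, adjusted p by limma = 0.994).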
